A study of Mus musculus with 6 samples.

Results

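The interferon regulatory factors are the transcription factors encoded by Irf1 to Irf9, and 8 of them, Irf1, Irf2, Irf3, Irf4, Irf5, Irf7, Irf8 and Irf9, are described here among the 29957 genes of the deposited table. They were taken by gene symbol and not by a threshold on measured values, though earlier results of these data were known. The RNA came from bone marrow-derived macrophages (BMDMs), the macrophages that mouse marrow gives rise to in culture, of wild-type genotype in both groups. The control group held 3 libraries, and the other 3 came from cells given lipopolysaccharide (LPS, the bacterial ligand of the receptor TLR4) as the first signal of the Nlrp3 inflammasome and PA-BSA, a free fatty acid, as the second, called LPS+PA below. The labels give no dose, time, age or sex of the mice, and leave unstated whether the controls were given LPS or BSA. Cells with a single one of the agents were not analysed here, so what LPS and the fatty acid each did cannot be told apart. Since the labels do not tie the replicates to different mice or dishes, p-values here reflect sample-to-sample spread that may be technical only.

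All family members share a DNA-binding domain that reads repeats of GAAA, and they differ in how they are switched on. IRF3 and IRF7 wait in the cytosol until the kinases TBK1 and IKK-epsilon phosphorylate them after TLR4, TLR3 or nucleic acid sensing, and then turn on interferon-beta. Interferon in turn activates ISGF3, a complex that holds STAT2 and IRF9 and whose targets include Irf7 itself. IRF1 and IRF2 compete for the same sites as activator and mainly repressor, IRF5 drives inflammatory cytokines after MyD88 signalling, and IRF4 and IRF8 bind together with PU.1 in blood cells.

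Values are FPKM (fragments per kilobase of transcript, relative to all mapped fragments), which can be set side by side between genes because they are per length. From the smallest steps of low FPKM values the libraries held 13.9 to 21.1 M (mega) fragments. The 10 macrophage markers examined were all detected, and the markers of conventional dendritic cells, which also express Irf4 and Irf8, summed to 0.456 to 0.578 FPKM in controls and 1.39 to 1.56 FPKM in LPS+PA, mostly Ccr7 in the latter, with none of 8 at 1 FPKM in 3 libraries. Summed markers of neutrophils were at 10.6 to 21 FPKM in controls and 59.4 to 75 FPKM in LPS+PA (3 of 6 detected, with S100a8 at means of 7.39 and 62.3 FPKM, S100a9 at 7.55 and 3.82 FPKM, and Ly6g and Retnlg listed at 0 in all LPS+PA libraries), those of plasmacytoid dendritic cells at 30.4 to 52.5 and 81.4 to 119 FPKM (2 of 5, mostly Bst2, which interferon also induces), those of stromal cells at 88.4 to 172 and 34.5 to 42.6 FPKM (5 of 5), those of B cells at 15 to 16.8 and 4.75 to 5.43 FPKM (2 of 6) and those of T and NK cells at 6.47 to 7.22 and 1.05 to 1.31 FPKM (1 of 6). The stromal markers did not move together, as Dcn was called higher (means of 4.91 and 23.3 FPKM) and Col1a1, Col1a2, Col3a1 and Pdgfrb lower. None of the markers named by cell type here was at 0 in all libraries, and their part in the results was not tested. The libraries differed within groups along the GC content of transcripts. Relative to the mean of their group, GC-rich genes were higher in controls 1 and 2 and LPS+PA 2 and 3 (slopes of 0.0698 to 0.168 on the log2 scale per 10 percentage points of GC) and lower in control 3 and LPS+PA 1 (-0.296 and -0.194). These sets of 4 and 2 libraries are called set A and set B, and the values of most tested members are given within each. The sets were drawn here by the sign of the slope, not by a label, and LPS+PA 2, with the smallest slope (0.0698), is the least certain of its place. Set B has 1 library per group, so its values carry no test. Since the sets come from these same values, fits that use them have less residual spread along GC content by construction. Their p-values are therefore descriptions only.

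The LPS+PA libraries held a different mixture of family transcripts from the controls. Irf7 and Irf1 rose, Irf3 and Irf8 fell, and Irf2, Irf5 and Irf9 did not pass the test. Calls come from limma, fitted on log2(FPKM + 1) to the 11364 genes that reached 1 FPKM in 3 or more libraries, two-sided, with Benjamini-Hochberg adjustment over all of them and a threshold of 0.05. Irf4 was below that level and was not tested. Among all tested genes 22.2% were called higher and 32.9% lower (55.1% in either direction), so 2 and 2 of 7 tested members are counts near the background. Of the transcription factors annotated in the table, 142 of 749 tested (19%) were higher and 231 (30.8%) lower. The ranges of the 2 groups were apart in 5 of the 7 tested members, 3 with LPS+PA above and 2 with it below, where 26.3% and 36.9% of all tested genes (63.2% together) were so. In bulk libraries, fewer cells that express a gene and less of its RNA per cell cannot be told apart. The authors' deposited table marked Irf1 and Irf7 as significant, with q-values of 1.62e-30 and 9.16e-42, and left unmarked Irf3, Irf8 and Irf9, with q-values of 0.00789, 0.00318 and 0.00535 but an absolute log2 fold change under 1.

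**Figure D1:**
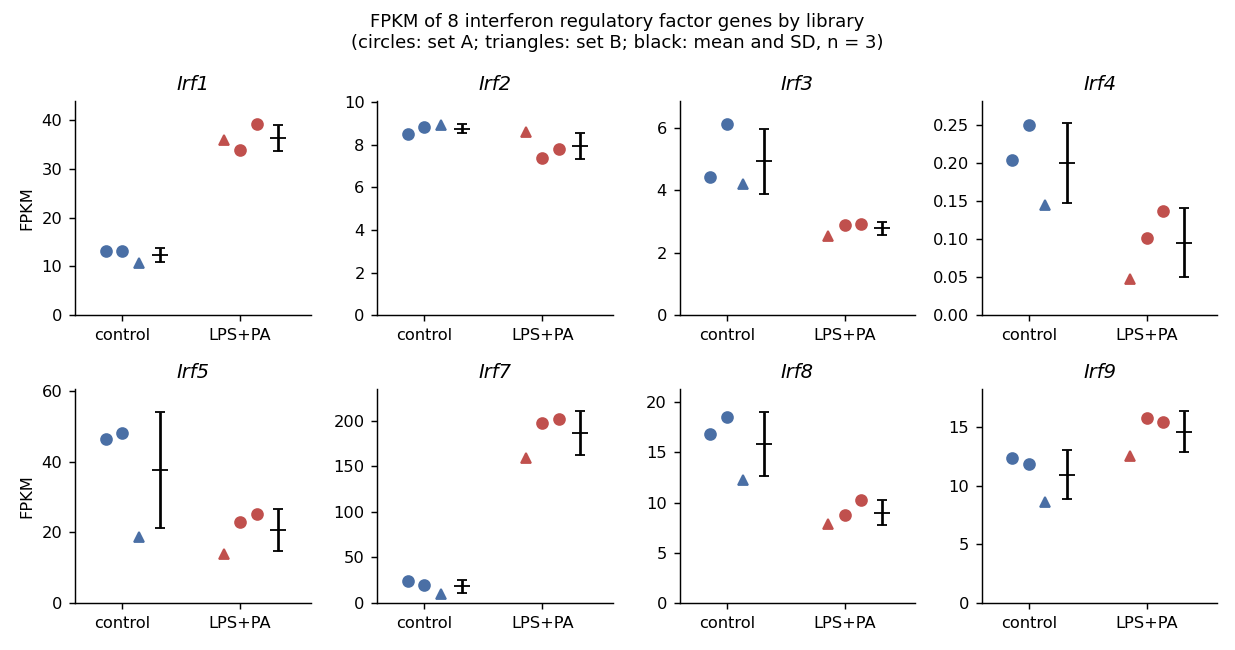
FPKM of each member in the 6 libraries on linear axes that start at 0, with circles for set A, triangles for set B, and the mean and SD of 3 libraries in black. Irf7 and Irf1 separate upwards and Irf3 and Irf8 downwards, while the low control 3 value of Irf5 lies among the LPS+PA values. Irf9 (upwards) and Irf4 (downwards), neither of them called, are also apart, each by a narrow gap.

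Irf7 encodes the factor that amplifies type I interferon production. It was at 24.3, 20.1 and 10.2 FPKM in controls 1 to 3 and at 159, 198 and 202 FPKM in LPS+PA 1 to 3. The lowest treated library was thus far above the highest control. The group means were 18.2 ± 7.25 and 186 ± 24 FPKM (SD, n = 3), a ratio of 10.2 (log2 fold change 3.36, SE 0.299, limma adjusted p = 0.000167). Among the 749 tested transcription factors Irf7 had the largest positive log2 fold change, ahead of Stat2 at 2.38 and Maff, a small basic leucine zipper factor, at 2.26. It kept rank 1 in each alternative fit across these factors. The log2 fold change was 3.12 within set A and 3.84 within set B, and 3.01 to 3.60 with each library left out in turn.

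Irf1 encodes an activator that is itself induced by interferon-gamma and by NF-kB. Controls 1 to 3 held 13.2, 13.2 and 10.7 FPKM, and LPS+PA 1 to 3 held 36, 34 and 39.3 FPKM. The groups did not overlap, and the spread within each was small beside the difference. Means were 12.4 ± 1.44 and 36.4 ± 2.64 FPKM (SD, n = 3), with a log2 fold change of 1.49 ± 0.107 (SE; limma adjusted p = 6.68e-05), which placed Irf1 at rank 12 of the 749 factors. Within sets A and B the log2 fold change was 1.40 and 1.66.

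Irf2, the partner that mainly represses the sites IRF1 activates, was at 8.5, 8.85 and 8.92 FPKM in controls and 8.61, 7.40 and 7.82 FPKM in LPS+PA. The groups overlapped. The log2 fold change was -0.13 with a 95% confidence interval from -0.32 to 0.07 (limma adjusted p = 0.221), close to the median of -0.11 over all tested genes. After quantile normalization, which moved that median to 0.01, the value for Irf2 was -0.02, and after removing each library's trend on GC content and length it was -0.26 (limma adjusted p = 0.0144). The log2 ratio of Irf1 to Irf2, formed within each library as a difference of log2(FPKM + 1), was 0.582, 0.530 and 0.242 in controls and 1.95, 2.06 and 2.19 in LPS+PA. Every treated library thus held a higher ratio than every control (difference 1.61; exact permutation test, two-sided p = 0.1, the smallest that 3 against 3 allows, and 0.118 adjusted over the 13 ratios, shares and sums computed).

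The starts of Irf1, Irf2 and Irf8 are shown because they hold the sequence matches found among the members. RefSeq promoter windows on GRCm38.p6 (mm10) were found for all 8 members, 11 windows in all, and the 250 bases before each start were searched on both strands for 4 motifs. These were the core of the interferon-stimulated response element (GAAA, any 2 bases, then GAAA, in 2.98% of 32851 windows of the same length), the composite element of PU.1 and an IRF (GGAA, any 2 bases, then GAAA, in 2.3%), the gamma-activated site of interferon-gamma signalling (TTCNNNGAA, in 7.02%) and the NF-kB consensus (in 7.25%). Capitals mark the matches, and each sequence runs 5′ to 3′ on the plus strand.
Irf1, chr11:53769764-53770013, bases -250 to -1: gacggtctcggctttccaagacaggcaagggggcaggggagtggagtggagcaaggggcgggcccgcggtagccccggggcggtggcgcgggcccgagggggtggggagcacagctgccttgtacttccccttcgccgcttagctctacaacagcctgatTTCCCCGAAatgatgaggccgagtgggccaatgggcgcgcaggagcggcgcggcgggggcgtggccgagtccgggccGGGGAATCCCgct
Irf8, chr8:120736108-120736357, bases -250 to -1: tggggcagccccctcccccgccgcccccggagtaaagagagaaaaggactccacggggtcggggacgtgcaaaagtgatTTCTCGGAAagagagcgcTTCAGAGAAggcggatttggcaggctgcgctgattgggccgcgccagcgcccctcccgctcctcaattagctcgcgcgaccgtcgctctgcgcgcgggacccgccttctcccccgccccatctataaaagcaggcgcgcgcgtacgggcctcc
Irf2, chr8:46739495-46739554, the first 60 bases of its window: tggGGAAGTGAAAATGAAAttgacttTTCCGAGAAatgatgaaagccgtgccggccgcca
Irf1 held a gamma-activated site match, TTCCCCGAA, at bases -90 to -82 and an NF-kB match, GGGGAATCCC, at -13 to -4. Irf8 held a pair of gamma-activated site matches, TTCTCGGAA at -171 to -163 and TTCAGAGAA at -153 to -145. In Irf2 the composite match GGAAGTGAAA (-247 to -238) overlapped the response element core GAAAATGAAA (-241 to -232). The gamma-activated site match TTCCGAGAA lay at -224 to -216, and outside the stretch shown an NF-kB match, GGGGATTTCC, lay at -17 to -8. The stretch shown overlaps an exon of Gm16675. In the whole window of Irf2, 34 bases are exonic for Gm16675 or Irf2, and the annotated start of Irf2 falls inside the NF-kB match. The other 8 windows, which include those of Irf7 and Irf9, held no match. Each window of Irf9 lies inside the annotated gene, the first with all 250 bases exonic. The bases before the annotated start of Irf9 were thus not searched. In the window of Irf7, 57 bases are exonic for Irf7 itself. Matches of the gamma-activated site thus stood before genes that rose (Irf1), fell (Irf8) and did not pass (Irf2), and a match is a description of the letters only.

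Irf3, the factor that TBK1 activates without new synthesis, was at 4.42, 6.12 and 4.2 FPKM in controls 1 to 3 and at 2.54, 2.88 and 2.91 FPKM in LPS+PA 1 to 3. Each treated library was below each control. The means were 4.91 ± 1.05 and 2.77 ± 0.207 FPKM (SD, n = 3), with a log2 fold change of -0.64 ± 0.137 (SE; limma adjusted p = 0.00817), and -0.67 within set A and -0.56 within set B. Removing the trend of each library on the GC content and length of transcripts brought it to -0.18 (limma adjusted p = 0.225) and ended the call. Between 45 and 106 fragments lay behind each value of Irf3, estimated from the steps of FPKM, the mean transcript length and the depth. Irf3 shares 2.56% of its exonic bases with Bcl2l12 on the other strand, and the sources used here do not give the strand setting of the authors' counting.

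Irf8, which sets the fate of myeloid precursors and works with PU.1 in macrophages, was at 16.8, 18.5 and 12.3 FPKM in controls and at 7.90, 8.80 and 10.3 FPKM in LPS+PA. The highest treated library stayed below the lowest control. The means were 15.9 ± 3.18 and 9 ± 1.22 FPKM (SD, n = 3), with a log2 fold change of -0.74 ± 0.165 (SE; limma adjusted p = 0.00928), and -0.82 within set A and -0.58 within set B. With the GC and length trend removed, Irf8 stood at -0.17 (limma adjusted p = 0.0494), still past the threshold.

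The transcripts of Irf3, Irf5 and Irf8, like those of Irf7 and Irf1, are GC-rich, and their values are set here beside those of other GC-rich genes. The mean GC content of the listed transcripts of Irf3, Irf5 and Irf8 was 56.9%, 56.2% and 57.8%, against a median of 49.9% over the tested genes. Over all tested genes the median log2 fold change fell with GC content, from 0.10 in the lowest decile to -0.74 in the highest, where 52.7% of genes were called lower and 5.19% higher. The value of Irf8 equalled the median of its decile (-0.74), and those of Irf3 (-0.64) and Irf5 (-0.77) stood near the median of theirs (-0.48). Irf7, in the same decile as Irf3 and Irf5, and Irf1, in a decile with a median of -0.31, went the other way from other GC-rich genes, at 3.36 and 1.49. The part of GC content in the falls was not tested beyond these values.

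**Figure D2:**
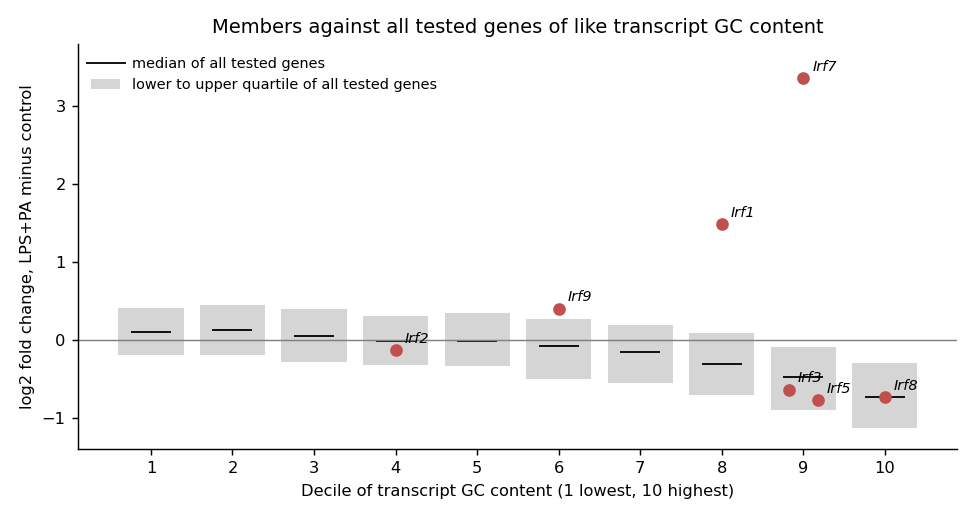
log2 fold change (LPS+PA minus control, on log2(FPKM + 1)) of the 7 tested members against the decile of transcript GC content, with the median and quartiles of all tested genes in each decile. Irf3, Irf5 and Irf8 lie inside the quartiles of their deciles, and Irf7 and Irf1 lie far above them.

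Irf5, which drives interleukin-12 and tumour necrosis factor in inflammatory macrophages, had the highest mean of the family in controls and the widest spread. It was at 46.4, 48 and 18.7 FPKM in controls 1 to 3 and at 13.8, 22.8 and 25.1 FPKM in LPS+PA 1 to 3. Control 3 lay below 2 of the 3 treated libraries, so the groups overlapped. Means were 37.7 ± 16.5 and 20.6 ± 5.96 FPKM (SD, n = 3; log2 fold change -0.77, 95% confidence interval -1.72 to 0.18, limma adjusted p = 0.14). In the authors' deposited table its q-value was 0.392. Within set A the levels were 47.2 and 24 FPKM (log2 fold change -0.95, limma adjusted p = 0.000335 with 2 libraries per group), and in set B 18.7 and 13.8 FPKM (-0.41). The sets were drawn from these same values, so p-values that use them are descriptions only. The call was also made with a term for the set (-0.77, limma adjusted p = 0.00256) and without control 3 (-1.20, limma adjusted p = 0.00567), but not once the GC and length trend was removed (-0.37, limma adjusted p = 0.28), nor with a term for the set when LPS+PA 2 was placed in set B (-0.48, limma adjusted p = 0.145). Of the exonic bases of Irf5, 14.1% are shared with Tnpo3 on the other strand, a gene at 5.78 to 7.57 FPKM in these libraries.

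Irf9, the DNA-binding subunit of ISGF3, was at 12.4, 11.9 and 8.59 FPKM in controls and at 12.6, 15.8 and 15.5 FPKM in LPS+PA. The groups touched without overlapping, as 26.3% of all tested genes did with LPS+PA above. Means were 11 ± 2.07 and 14.6 ± 1.76 FPKM (SD, n = 3; log2 fold change 0.40, unadjusted 95% confidence interval 0.02 to 0.77, limma adjusted p = 0.0690). In the fits that use the sets, which were drawn from these same values, the value passed within set A (0.34, limma adjusted p = 0.00471) and with a term for the set (0.40, limma adjusted p = 0.00154). It was 0.51 in set B. With each library left out in turn it did not pass (0.24 to 0.49, limma adjusted p = 0.056 to 0.182), and it was lowest without control 3. After quantile normalization it passed as well (0.45, limma adjusted p = 0.0332), and the authors' deposited table gave a fold change of 1.34 with a q-value of 0.00535.

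Stat2, which encodes the partner of IRF9 in ISGF3, was at 21.8, 19.4 and 19 FPKM in controls and at 107, 112 and 108 FPKM in LPS+PA. It rose with a log2 fold change of 2.38 (limma adjusted p = 3.53e-06), and Irf9 was less abundant than Stat2 in every library. The log2 ratio of Irf9 to Stat2 went from -0.830 ± 0.208 to -2.82 ± 0.142 (SD, n = 3; difference -1.99, exact permutation test, two-sided p = 0.1, the smallest possible, and 0.118 adjusted over 13), with each treated library below each control. The log2 ratio of Irf7 to Irf3, the pair that first turn on interferon genes, was 1.63 ± 0.561 in controls and 5.63 ± 0.112 in LPS+PA, again with no overlap and the same exact permutation p = 0.1.

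Irf4, the factor of lymphocytes that also takes part in alternative activation of macrophages, was at 0.204, 0.250 and 0.145 FPKM in controls and 0.0476, 0.101 and 0.137 FPKM in LPS+PA. These levels rest on about 10 to 21 fragments per control library and 4 to 11 per treated one. The treated values were all below the controls, but the closest pair, 0.145 FPKM in control 3 and 0.137 FPKM in LPS+PA 3, rests on about 10 and 11 fragments, and no test was made. The log2 ratio of Irf5 to Irf4, which is set almost wholly by Irf5 since Irf4 adds little to the pseudocount of 1, was 4.90 ± 0.689 and 4.26 ± 0.381 (SD, n = 3; exact permutation test, two-sided p = 0.3).

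**Figure D3:**
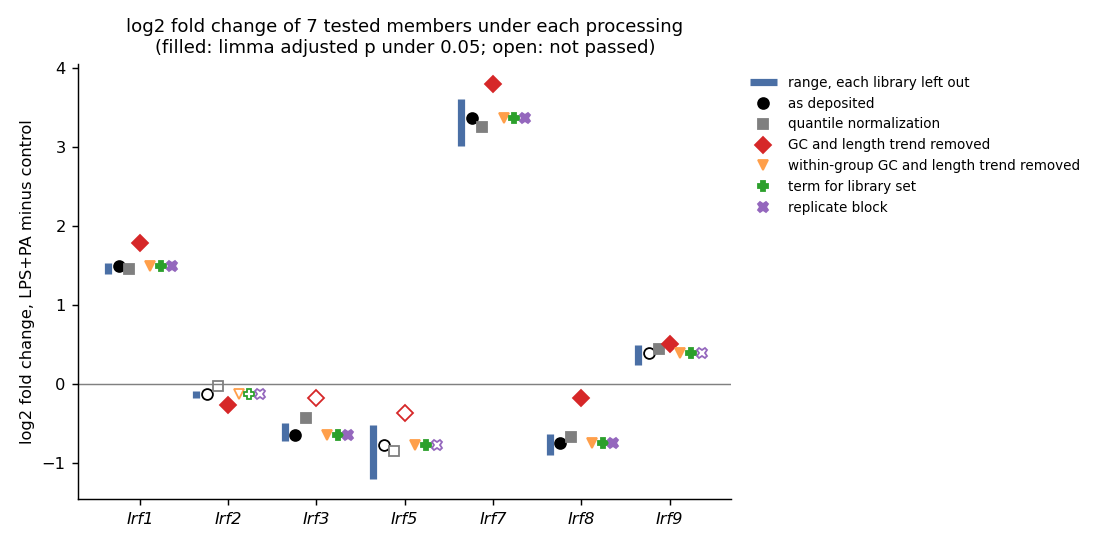
log2 fold change (LPS+PA minus control) of the 7 tested members under 6 ways of processing, with a bar for the range over libraries left out in turn; filled symbols passed a limma adjusted p of 0.05. Irf1 and Irf7 stayed far above 0 in all, while the values of Irf3, Irf5 and Irf8 moved towards 0 with the GC and length trend removed.

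The order of the members by level was therefore not the same in the 2 groups. In controls Irf5 was highest at a mean of 37.7 FPKM, followed by Irf7, Irf8, Irf1, Irf9 and Irf2, and no neighbours in this row were separated, as the range of each overlapped that of the next. Irf3 lay below them and Irf4 below Irf3, each with no overlap. In LPS+PA the order was Irf7, Irf1, Irf5, Irf9, Irf8, Irf2, Irf3 and Irf4, in which Irf5 overlapped Irf9 and Irf8 overlapped Irf2 and all other neighbours were separated.

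Summed over the 8 members, the family was at 109 ± 30.5 FPKM in controls and 278 ± 33.1 FPKM in LPS+PA (SD, n = 3). Irf7 made up 19.2%, 15.9% and 13.8% of that sum in controls 1 to 3 and 66.1%, 68.3% and 66.7% in LPS+PA 1 to 3. It was thus the largest part of the family in every treated library and a smaller part than Irf5 in every control. Irf5 went from 33.3 ± 6.93% to 7.30 ± 1.36% and Irf8 from 14.9 ± 1.74% to 3.24 ± 0.189%. Irf1 held 11.8 ± 2.37% and 13.2 ± 1.65%, with overlap. Shares add up to the whole, so the rise of Irf7 by itself lowers the others. For Irf5, Irf7 and Irf8 the exact permutation test gave two-sided p = 0.1, the smallest that 3 against 3 allows, and 0.118 adjusted over the 13 measures. The share of Irf7 had an SD of 1.17 percentage points among treated libraries, and LPS+PA 1, the lowest in FPKM, was not set apart in its share. Irf7 makes up most of the sum it is divided by there, which by itself steadies its share.

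**Figure D4:**
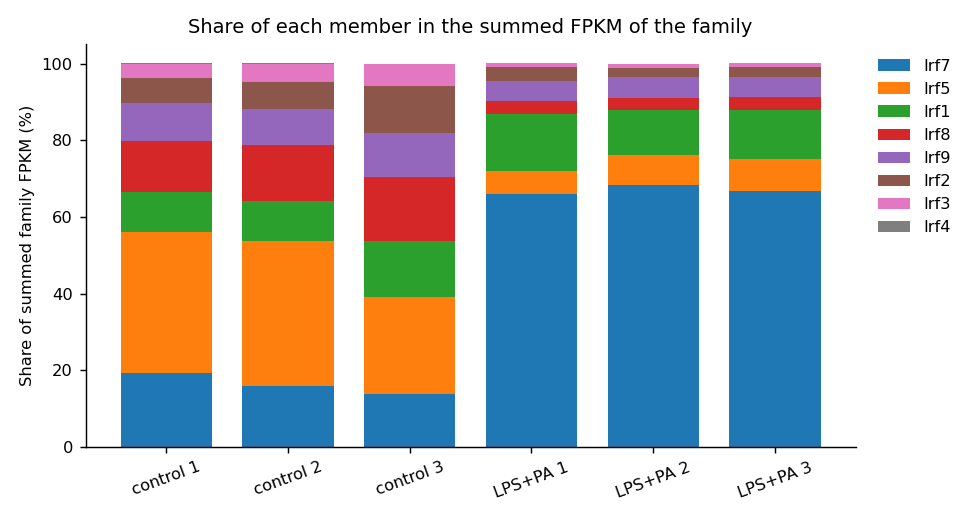
Share of each member in the summed FPKM of the 8 genes, in percent, for each of the 6 libraries. Irf5 is the largest part in all 3 controls, with 25.3 to 37.8%, and Irf7 in all 3 LPS+PA libraries, with 66.1 to 68.3%.

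Genes that act before, with and after the family were described from 10 lists, chosen with earlier results of these data known. Their counts stand beside 22.2% of all tested genes called higher and 32.9% called lower. Of the 26 tested sensors, adaptors and kinases that lead to IRF3, IRF5 and IRF7, 11 rose, 5 fell and 10 did not pass, with a median log2 fold change of 0.41 beside -0.11 over all tested genes. The RNA sensors Ddx58 (RIG-I) and Ifih1 (MDA5) had the largest changes, from 15.3 ± 0.819 to 82.9 ± 8.54 FPKM and from 6.79 ± 0.599 to 37.4 ± 4.29 FPKM, and Tlr3, the receptor for double-stranded RNA, went from 3.56 ± 0.331 to 12.5 ± 1.42 FPKM (SD, n = 3). Tbk1, the kinase of IRF3, rose from 28.9 ± 2.61 to 44.6 ± 1.72 FPKM (log2 fold change 0.61, limma adjusted p = 0.00139), while the related kinase gene Ikbke was at 21.5 ± 2.1 and 24 ± 2.98 FPKM (limma adjusted p = 0.309). Those that fell, 5 genes chosen for the text after their values were seen, were Irak4, Slc15a4, Mavs, Tlr9 and Irak1. Irak4, the kinase next to MyD88, went from 8.69 ± 0.708 to 4.21 ± 0.545 FPKM, and Slc15a4, a lysosomal transporter that IRF5 activation by TLR7 and TLR9 needs, from 12.8 ± 1.79 to 7.51 ± 0.217 FPKM.

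Interferon genes themselves were scarce in all libraries. Of 11 ligands 4 had a row, and none reached the level for testing. Ifnb1, the gene of interferon-beta, was listed at 0, 0 and 0.0542 FPKM in controls and at 0.634, 0.360 and 0.447 FPKM in LPS+PA, so every treated library was above every control at a level under 1 FPKM. Of 10 genes of receptors, kinases and STATs 7 rose, 1 fell and 2 did not pass, beside 22.2% higher and 32.9% lower over all tested genes. Jak2 rose from 10.1 ± 1.15 to 49.7 ± 5.00 FPKM beside Stat2 (log2 fold change 2.19, limma adjusted p = 1.66e-05). The interferon-alpha receptor genes Ifnar1 and Ifnar2 rose only by 0.23 and 0.21 on the log2 scale, and Ifngr1, a chain of the interferon-gamma receptor, fell from 47.0 ± 1.33 to 17.6 ± 0.618 FPKM (SD, n = 3), with a fold change of -1.37 on the log2 scale (limma adjusted p = 1.62e-05). Ifngr2, the other chain of that receptor, rose from 32.4 ± 1.35 to 53.4 ± 3.79 FPKM (log2 fold change 0.70, limma adjusted p = 0.000538). These receptor genes were chosen for the text with their values in view.

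Of 11 tested DNA-binding partners and co-repressors of the family, 1 rose, 4 fell (32.9% of all tested genes did) and 6 did not pass, with a median of -0.26. Batf2, a partner of IRF1 in activated macrophages, rose from 1.11 ± 0.576 to 3.58 ± 1.04 FPKM. Cebpa, a myeloid lineage factor, fell from 14.2 ± 0.421 to 4.28 ± 0.156 FPKM (log2 fold change -1.53, and -0.61 with limma adjusted p = 0.0984 once the GC and length trend was removed). Spi1, which encodes PU.1, was at 61.2, 67.1 and 41.3 FPKM in controls and 29.2, 37.3 and 42.0 FPKM in LPS+PA. Its groups overlapped at control 3 and LPS+PA 3 (log2 fold change -0.62, limma adjusted p = 0.0449), and the call ended without control 1, control 2, LPS+PA 1 or LPS+PA 2, where the values were -0.55, -0.48, -0.48 and -0.65. It passed with a term for the set (limma adjusted p = 0.000986), at -0.68 within set A (limma adjusted p = 0.0019) and at -0.76 after quantile normalization (limma adjusted p = 0.0146), and stood at -0.49 in set B. With the GC and length trend removed Spi1 was at -0.34 (limma adjusted p = 0.0426), and without the filter on low values it missed the threshold (limma adjusted p = 0.11). Spib, the close relative of Spi1, was at 1.74 ± 0.216 and 0.781 ± 0.0973 FPKM (log2 fold change -0.62, limma adjusted p = 0.00177), which became 0.05 with the GC and length trend removed. Spib met the filter only through the controls, so it could only be called lower or not pass. Ikzf1, named after its value was seen, completed the 4, at -0.26. The co-repressor genes Irf2bp1, Irf2bp2 and Irf2bpl were among those that did not pass, and were likewise chosen after their values were seen.

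Of 11 tested negative regulators 5 rose and 4 fell, beside 22.2% and 32.9% of all tested genes, with a median of -0.02. Usp18, which shuts off the interferon receptor, rose from 11.7 ± 0.359 to 209 ± 7.93 FPKM, and Socs3, an inhibitor of STAT3 signalling, from 4.85 ± 1.03 to 37.8 ± 7.27 FPKM (SD, n = 3). Isg15, a ubiquitin-like modifier also held by the ISGF3 list, rose from 26.4 ± 6.27 to 535 ± 239 FPKM. Foxo3, Rbck1, Ptpn6 and Trim28 were the 4 lower genes, here too chosen after their values were seen. Foxo3 (17.6 ± 1.77 to 8.22 ± 0.124 FPKM) restrains Irf7 transcription in mouse macrophages, and Rbck1 (5.00 ± 1.71 to 1.99 ± 0.652 FPKM) promotes the breakdown of IRF3 protein.

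Among textbook targets, the lists differed in how uniform they were, where 22.2% of all tested genes rose and 32.9% fell. All 20 targets of ISGF3 and IRF7 rose, with a median log2 fold change of 4.02, among them Cxcl10, Rsad2 and Ifit2 at 5.98, 5.65 and 4.98. Of 16 tested targets of IRF1, 14 rose and none fell (median 1.73). The guanylate-binding proteins Gbp3 and Gbp2 went from 6.89 ± 1.05 to 190.4 ± 8.26 FPKM and from 19.3 ± 4.47 to 396 ± 18 FPKM, and Nos2 had a log2 fold change of 4.33. The other 2 did not pass. All 7 tested targets of IRF5 rose (median 3.46), led by Il6, Ccl5 and Ccl3 at 4.94, 3.90 and 3.65, while Irf5 itself did not pass. Il6, Il12a and Il12b had control means of 0.537, 0.0795 and 0.104 FPKM and met the filter only through LPS+PA. These 3 genes could therefore only be called higher or not pass. Il12b is also held by the lists of IRF1 and of IRF8 with PU.1. Ccl5 was at 36.9, 36.9 and 5.13 FPKM in controls, and its value was 3.03 without control 3, below that of Ccl3 (3.72). Many of these genes are also targets of NF-kB, and their levels do not measure the activity of a single factor.

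Targets of IRF8 with PU.1 went both ways. Of 12 tested, 6 rose, 3 fell and 3 did not pass (median 0.19), where 22.2% of all tested genes rose and 32.9% fell. The largest changes were those of Il1b, Ptgs2 and Il12b (log2 fold changes of 6.28, 6.07 and 3.20), all also induced through NF-kB. Cst3, Csf1r and Bcl2 were lower (picked out after their values were seen), and Csf1r, the receptor for the macrophage growth factor, went from 305 ± 8.73 to 207 ± 11.6 FPKM. In the list of IRF4 and alternative activation, 1 of 9 tested genes rose, 2 fell and 6 did not pass (median -1.19), beside the same shares. Mrc1 and Clec10a, a pair of lectin receptors, fell with log2 fold changes of -4.61 and -1.24, and the chemokine Ccl22 rose by 3.84. Clec10a met the filter only through the controls (means of 2.6 and 0.516 FPKM). Ccl22 met it only through LPS+PA (means of 0.167 and 15.8 FPKM). The direction in which either could be called was thus set by the filter. Chil3 and Retnla, named after their values were seen, overlapped between the groups. Chil3 was at 28 and 31.2 FPKM in controls 1 and 2, 0.145 FPKM in control 3 and 6.80 FPKM in LPS+PA 3.

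**Figure D5:**
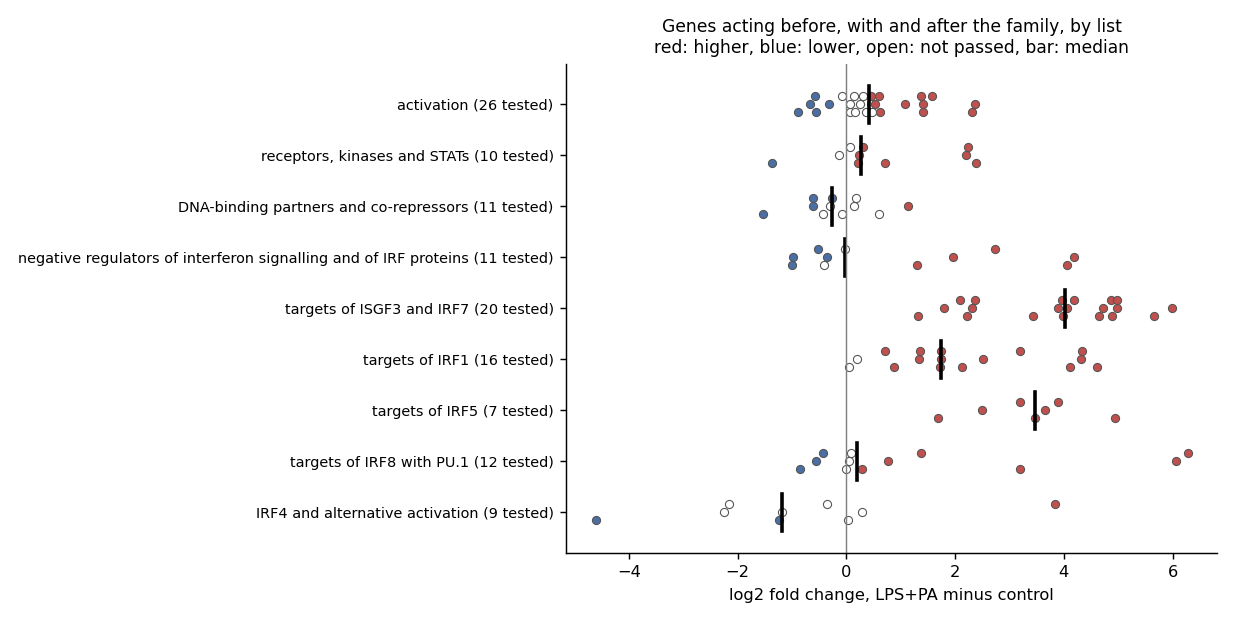
log2 fold change (LPS+PA minus control) of each tested gene in 9 lists with tested members, coloured by call, with the median as a bar. All 20 targets of ISGF3 and IRF7 and all 7 of IRF5 lie above 0, while partners and targets of IRF8 spread to both sides. Il6, Il12a, Il12b and Ccl22 met the filter only through LPS+PA, and Clec10a and Spib only through the controls.

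Genes most like each called member were found by the Euclidean distance of log2(FPKM + 1) over the 6 libraries, each gene centred on its own mean, as a description. For Irf1 these were BC147527 and Znfx1 (distances 0.0755 and 0.193), with log2 fold changes of 1.52 and 1.46. BC147527 had means of 0.533 and 3.38 FPKM, beside 12.4 and 36.4 FPKM for Irf1. The pseudocount of 1 understates the change of so low a gene, so BC147527 is like Irf1 on this scale only and not in its ratio of FPKM. Irf7 had no close neighbour, the nearest being Tgtp2, which has a near-identical copy that can share its reads, and AW112010 (0.607 and 0.633). For Irf3 the nearest were Phkg2 and Fbf1 (0.112 and 0.14), and for Irf8 Cdc42bpb and Cuta (0.0571 and 0.0700). The neighbours of Irf8 had transcript GC contents of 58.1% and 57.4%, beside its own 57.8%.

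In mm10 the members lie on chromosome 11 at 53770014 to 53778374 (Irf1), chromosome 8 at 46739732 to 46847458 (Irf2), chromosome 7 at 44997648 to 45002848 (Irf3), chromosome 13 at 30749226 to 30766976 (Irf4) and chromosome 6 at 29526625 to 29541871 (Irf5). Irf7 lies on chromosome 7 at 141262706 to 141266481 on the minus strand, Irf8 on chromosome 8 at 120736358 to 120756694 and Irf9 on chromosome 14 at 55603571 to 55610030. All are protein-coding genes in GENCODE M21, and a value covers the gene as a whole, with 2 transcripts listed for Irf4 and 6 to 12 for the others.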

How the data were processed

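Gene expression was measured in 6 libraries, grouped and numbered by their titles. Per the labels' protocols, poly(A) RNA was selected, U-labelled second strands were digested away, and paired ends were read on an Illumina NovaSeq. The authors deposited FPKM values for 29957 genes, with a fold change as a ratio of mean FPKM and its log2. Per the file headers they also gave a p-value and a q-value. The submitters' processing notes list mm10, edgeR, DESeq2, StringTie 2.1.6, HISAT2 2.2.1 and cutadapt 1.9, without order or role. FPKM is relative to the library total, so abundant transcripts that change move all others.

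The test was limma 3.58.1 (R 4.3.3) with a variance trend on log2(FPKM + 1), a scale that understates the change of low genes, without a block and with a filter of 1 FPKM in 3 libraries. It was tested on simulated data. A gene under 1 FPKM in all libraries of a group met the filter only through the other group, which left it open to a call in 1 direction only. Ratios and shares within libraries used exact permutation tests (scipy 1.17.1). GC content and length of transcripts came from GENCODE M21 for 11356 of the tested genes, and trends were removed as a quadratic in both. This removal takes out a trend between the groups as well as one within them. Depth came from the commonest step of FPKM times length in genes with 1 transcript, and covers counting error only. For 55 symbols on more than 1 row, the most abundant row was taken. The members, lists and tests were chosen with earlier results of these data known. The text names all members, the 3 largest called changes of each list and Stat2, Spi1, Ifnb1, Tbk1 and Ikbke, and says where another gene was named after its values were seen. A gene of several lists counts in each, and some genes that the rule would name are not reported here.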

Additional observations from a re-analysis of the deposited data

How the results depend on the processing

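Over all tested genes 2523 were higher and 3736 lower (40.3% of calls higher), and 50.8% of calls were higher after quantile normalization. The 4 libraries of set A alone, a set drawn from these same values, gave 2949 higher and 4558 lower. Of 115 tested genes in the lists, 65 rose and 19 fell, and 11 fell after removal of the GC and length trend. That removal also gave -0.18 for Irf3, which then missed the threshold, and -0.26 for Irf2 and 0.51 for Irf9, which passed it. Irf5 passed at -0.77 with a term for the library set and after removal of within-group GC and length trends (an alternative chosen after seeing the data, limma adjusted p = 0.0434), and at -0.95 within set A. Irf9 passed at 0.45 after quantile normalization, at 0.40 with the term for the set and with within-group trends removed (limma adjusted p = 0.0304), and at 0.34 within set A. With LPS+PA 2 placed in set B, a choice made after seeing the data, the fit with a term for the set gave 0.49 for Irf9 (limma adjusted p = 0.0157), and Irf5 missed the threshold at -0.48. Within set B, Irf1 was at 1.66, Irf2 at -0.05 and Irf7 at 3.84, with no test. Irf4, without a test, was at -0.63 with a pseudocount of 0.1 and -0.13 with 1. Spib was at 0.05 with the GC trend removed, reversed in sign. Leaving out each library in turn gave -1.20 to -0.52 for Irf5 (limma adjusted p = 0.00567 to 0.347), and Irf1, Irf3, Irf7 and Irf8 stayed past the threshold in all 6 such fits.

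Same-numbered samples did not deviate together (correlations of their departures from the group means of -0.472, 0.0907 and -0.589). With the replicate block, 1918 genes were higher and 2820 lower, the calls of the 7 tested members were as without it, and Spi1 missed the threshold (limma adjusted p = 0.0892). The number pairs nothing in the labels. Depth limits Irf4 and Ifnb1, which rest on few fragments.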
